A study of Mus musculus with 6 samples.

Results

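The 10 genes described here encode MHC class I molecules and the machinery that loads them: the heavy chains H2-K1, H2-D1, H2-Q4, H2-Q6, H2-Q7 and H2-T23, the light chain B2m, the peptide transporter subunits Tap1 and Tap2, and the class I transactivator Nlrc5. They were taken by name from the 55471 genes counted in the mouse hippocampus, and the group was chosen by measured values, because H2-Q6 had varied between libraries in the comparison of genotypes. The values of that comparison are therefore a description of these 10 genes, and the calls of the fits over all genes are counted beside their background only, with nothing read from them.

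RNA-seq libraries from 6 mice were compared, 3 labelled Control and 3 p300-ifKO, each from total RNA of the hippocampus of 1 C57BL/6 animal labelled 3-6 months old (male and of C57BL/6J background, per the study's methods). The p300-ifKO mice carried floxed Ep300 and the Camk2a-creERT2 transgene, so that tamoxifen left a truncated p300, a transcriptional coactivator and lysine acetyltransferase, without its enzymatic activity. Controls were littermates, and mice of both groups received 5 intragastric administrations of tamoxifen at 20 mg/mL in corn oil. For the controls the treatment protocol states that they lacked creERT2, whereas the description field of each control names Camk2a_creERT2. Groups were taken from the sample titles, and counts of Esr1, part of which is in the transgene, were low in every control (values below). The driver is active in excitatory forebrain neurons, while the libraries hold RNA of all hippocampal cells, so that fewer cells of a type and less RNA per cell cannot be told apart.

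Class I molecules present peptides from the cytosol at the cell surface. The proteasome cuts the peptides, Tap1 and Tap2 carry them into the endoplasmic reticulum, chaperones load them onto a heavy chain paired with B2m, and the complex moves to the membrane, where CD8 T cells and natural killer cells read it. In the brain, microglia and endothelial cells express class I genes, neurons also transcribe them, and roles in synapse remodelling have been described for H2-K1 and H2-D1. Type I and type II interferons induce the whole pathway through interferon regulatory factors and Nlrc5.

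Of the members, 8 lie on mouse chromosome 17 (GRCm38) between 33996017, the start of H2-K1, and 36032855, the end of H2-T23. H2-K1 occupies 33996017 to 34000347 on the minus strand, Tap1 34187553 to 34197225 and Tap2 34203527 to 34216321 on the plus strand. H2-D1 follows at 35262730 to 35267499, H2-Q4 at 35379617 to 35385290, H2-Q6 at 35424850 to 35430055 and H2-Q7 at 35439155 to 35443773, all on the plus strand, and H2-T23 spans 36029773 to 36032855 on the minus strand. The other 2 are B2m on chromosome 2 (122147686 to 122153083) and Nlrc5 on chromosome 8 (94434356 to 94527272), both on the plus strand.

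The stretches below come from promoters of class I genes and are shown because they carry the elements through which NF-kB, interferon and the Nlrc5 enhanceosome act, and because H2-Q6 and H2-Q7, the pair that varied most between mice, have nearly the same one. They are RefSeq sequence of GRCm38.p6, written 5′ to 3′ on the strand of the gene and ending upstream of the annotated start: chr17:34000350-34000464 (minus) for H2-K1, chr17:35262917-35263031 (plus) for H2-D1, chr17:35379437-35379551 (plus) for H2-Q4, chr17:35424671-35424784 (plus) for H2-Q6, chr17:35439016-35439128 (plus) for H2-Q7 and chr2:122147542-122147644 (plus) for B2m. Capitals mark, from left to right in the heavy chain genes, matches to the kB motif GGGATTNCC, the run CAGTTTCACTTCTGC, which is the longest common to all 5 between these outer motifs and holds the interferon element, the X2 region TGNTGAC and the inverted CCAAT box ATTGG. In B2m the capitals mark GAAANNGAA, the core of an interferon element, and ATTGG.
H2-K1: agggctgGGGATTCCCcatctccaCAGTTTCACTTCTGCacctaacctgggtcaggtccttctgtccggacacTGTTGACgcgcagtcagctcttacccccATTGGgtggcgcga
H2-D1: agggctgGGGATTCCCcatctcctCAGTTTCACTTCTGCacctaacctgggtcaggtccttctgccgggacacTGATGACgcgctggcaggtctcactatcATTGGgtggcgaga
H2-Q4: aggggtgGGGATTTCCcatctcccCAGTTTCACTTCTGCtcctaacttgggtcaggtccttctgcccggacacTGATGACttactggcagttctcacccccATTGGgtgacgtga
H2-Q6: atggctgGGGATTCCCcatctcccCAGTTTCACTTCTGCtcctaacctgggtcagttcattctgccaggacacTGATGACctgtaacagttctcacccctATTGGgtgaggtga
H2-Q7: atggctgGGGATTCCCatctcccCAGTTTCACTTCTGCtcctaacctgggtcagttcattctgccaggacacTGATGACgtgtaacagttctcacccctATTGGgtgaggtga
B2m: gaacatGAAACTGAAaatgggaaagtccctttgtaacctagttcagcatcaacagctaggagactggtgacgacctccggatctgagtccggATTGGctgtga

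RefSeq promoters were matched for 8 of the 10 members, all but Tap2 and Nlrc5, and each motif was searched on both strands of the 250 bases before the start in 27025 genes. CAGTTTCACTTCTGC was found in 6 of the 27025 promoters (0.0222%), 5 of them H2-K1, H2-D1, H2-Q4, H2-Q6 and H2-Q7, from which the run was taken. The kB motif lay in 0.977% of all promoters and in the same 5 members, and these 5 were the only genes of the 27025 whose promoter held both. GAAANNGAA was present in 8.18% of promoters, B2m and H2-T23 among them, and ATTGG in 37.5%, with all 8 members among them. The X2 letters TGNTGAC stood in 13.2% of promoters and in 7 members, Tap1 being the one without them. TGACG, the core of a cAMP response element, which overlaps the X2 motif where TGAC is followed by G, was found in 19.8% of promoters and in 6 members, H2-Q7 included, but not in the window of H2-Q6 or of H2-T23. Over the printed stretches H2-Q6 and H2-Q7 were identical at 112 of 113 aligned bases, against 96 of 114 for H2-Q6 and H2-K1 and 103 of 115 for H2-K1 and H2-D1.

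The libraries held 23151568 to 28433823 counted reads. Ep300 gave 1545, 1474 and 2334 normalized counts (counts divided by DESeq2 size factors) in Control 1, 2 and 3 and 478, 1350.3 and 912 in p300-ifKO 1, 2 and 3, a log2 fold change of -0.97 ± 0.33 (SE), with p300-ifKO 2 nearest to the controls. Esr1, part of which is in the creERT2 transgene, lay between 87.2 and 109 in controls and between 2416 and 4217 in p300-ifKO mice, and Crebbp, the paralog of Ep300, between 1984 and 2179.7 in controls and between 1957 and 2055 in p300-ifKO mice. Libraries also differed in how counts depended on gene length. Spearman's rho between exonic length and the deviation of a gene from its mean over the libraries was 0.21, 0.19 and 0.43 in controls and -0.49, 0.44 and -0.23 in p300-ifKO mice (over 17054 genes, which are not independent). Long genes were thus low in p300-ifKO 1 and 3, the mice in which most class I genes were highest. For H2-Q6 and H2-Q7 Control 1 stood apart from the other two controls, and values without it and without p300-ifKO 2 are given below.

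The classical heavy chains H2-K1 and H2-D1, which present peptides to CD8 T cells, were the best measured of the heavy chains. H2-K1 gave 1071, 736 and 741 normalized counts in the 3 controls and 1479, 914 and 1405 in the 3 p300-ifKO mice, with group means of 849 ± 192 and 1266 ± 307 (SD, n = 3 each). H2-D1 gave 1105, 802 and 884 in controls and 1863, 1042 and 1774 in p300-ifKO mice. For both genes p300-ifKO 1 and 3 lay above every control, while p300-ifKO 2 lay below Control 1, so the groups overlapped. The log2 fold change, p300-ifKO over Control, was 0.58 ± 0.23 (SE) for H2-K1 and 0.75 ± 0.24 for H2-D1.

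B2m, the light chain without which most heavy chains do not reach the surface, was likewise highest in p300-ifKO 1 and 3 and next highest in Control 1. Its normalized counts were 2659.7, 1981 and 1932 in controls and 3594, 2379 and 3632 in p300-ifKO mice (log2 fold change 0.55 ± 0.21, SE). Over the 6 libraries log2(normalized count + 1) of B2m and of H2-K1 correlated with Pearson's r = 0.996, the highest value among the 45 pairs of members, although the genes lie on different chromosomes. B2m shared no stretch of 50 bases, the read length, with any other gene, so its counts are not subject to reads that map to several class I genes.

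H2-Q6 and H2-Q7 encode Qa-2 antigens, nonclassical class I molecules, and showed the widest spread of the members among controls. H2-Q6 gave 144, 42.0 and 42.9 normalized counts in Control 1, 2 and 3 and 145, 103 and 137 in p300-ifKO 1, 2 and 3. H2-Q7 gave 88.5, 17.9 and 24.5 in controls and 89.1, 60.1 and 66.5 in p300-ifKO mice. In both genes Control 1 was at the level of p300-ifKO 1, the other two controls were lower than all p300-ifKO mice, and the highest library exceeded the lowest 3.45 times for H2-Q6 and 4.99 times for H2-Q7. The coefficient of variation among controls was 76.9% for H2-Q6 and 89.4% for H2-Q7, against 17.6% and 21.2% among p300-ifKO mice, and 22.6% among controls for H2-K1. Log2 fold changes were 0.74 ± 0.45 (SE) for H2-Q6 and 0.72 ± 0.54 for H2-Q7. Without Control 1 they became 1.59 and 1.76, and without Control 2 they were 0.46 and 0.35.

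The remaining nonclassical genes were H2-Q4, also of the Q region, and H2-T23, which encodes Qa-1, the ligand of the NKG2A receptor of natural killer cells. H2-Q4 gave 132, 63.0 and 79.6 normalized counts in controls and 182, 105 and 137 in p300-ifKO mice (log2 fold change 0.62 ± 0.33, SE). H2-T23 gave 165, 132 and 144 in controls and 233, 123 and 208 in p300-ifKO mice (0.35 ± 0.27). Control 1 was the highest control for both genes, as for every member, by more for H2-Q4 than for H2-T23. For H2-T23 the lowest of all 6 values was that of p300-ifKO 2.

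Tap1 and Tap2, the subunits of the peptide transporter, varied less. Tap1 gave 186, 133 and 136 normalized counts in controls and 222, 178 and 203 in p300-ifKO mice (log2 fold change 0.40 ± 0.22, SE), with p300-ifKO 2 again below Control 1. Tap2 gave 247, 221 and 220.4 in controls and 311, 227 and 256 in p300-ifKO mice (0.21 ± 0.19), the narrowest range of all members, with the highest library 1.41 times the lowest. Nlrc5, the transactivator, acts at class I promoters through the X2 region and its neighbours. It gave 62.6, 34.7 and 59.2 in controls and 53.7, 82.2 and 78.1 in p300-ifKO mice (0.45 ± 0.33). For Nlrc5 the order of the mice was different from that of the heavy chains: p300-ifKO 2 was highest and p300-ifKO 1 was below 2 of the controls.

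**Figure D1:**
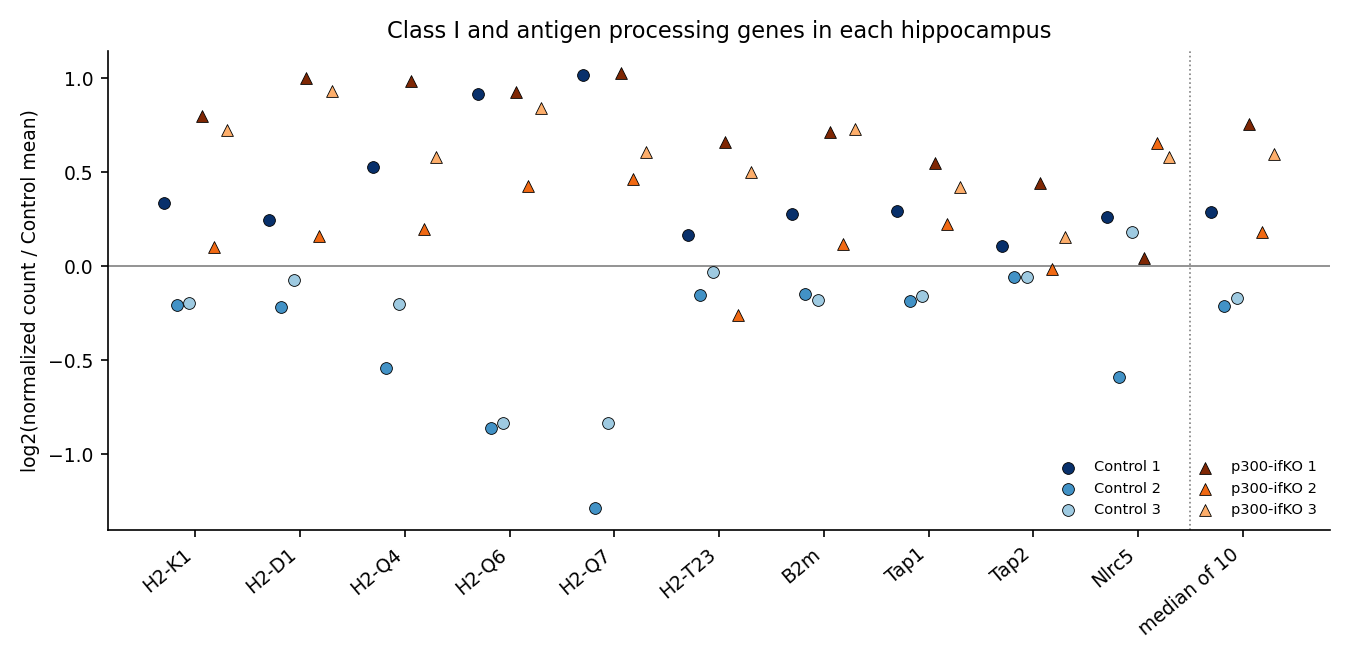
Normalized counts of the 10 genes in each library, as log2 of the ratio to the mean of the 3 controls (y axis); circles are controls, triangles p300-ifKO mice, and the last column is the median over the 10 genes. Control 1 stands at 0.92 for H2-Q6 and 1.02 for H2-Q7 while Control 2 and 3 are at -0.83 or lower, and the medians are 0.29, -0.21 and -0.17 in controls and 0.76, 0.18 and 0.60 in p300-ifKO mice.

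All 10 members had a higher mean in p300-ifKO mice, with log2 fold changes from 0.21 (Tap2) to 0.75 (H2-D1) and a median of 0.56. Over the 17070 tested genes with a mean normalized count of at least 10 the median was -0.01, and 49.3% of genes at that level had a fold change above 0. In none of the 10 did the groups separate, since the lowest p300-ifKO mouse was always below the highest control; over the genes with a mean of at least 10, 4.09% had every p300-ifKO library above every control. At an adjusted p under 0.05, DESeq2 called 0 of the 10 members, where it called 0.0061% of all 32773 genes (2 genes, Esr1 and Arsi), and edgeR's quasi-likelihood test called 0 of 10 and 0.0117% of its 17131 genes. At an unadjusted p under 0.05 DESeq2 listed 3 members (H2-K1, H2-D1 and B2m), against 1.32% of all genes. Because the same comparison picked the group, nothing is read from these shares.

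The calls among the members changed when either of 2 libraries was left out. Without p300-ifKO 2, DESeq2 called 951 genes (8.72% of the 10912 with an adjusted p), among them H2-K1, H2-D1 and B2m, while Tap2 was not called and the other 6 members received no adjusted p. In that fit the rho with exonic length was 0.19 to 0.43 in controls and -0.49 and -0.23 in the remaining p300-ifKO mice. Length dependence and genotype cannot be told apart there. Without Control 1 DESeq2 called 3 genes (0.00933% of 32138), and H2-Q6 was one of them. Nothing is read from this call, since H2-Q6 picked the group. Its controls gave 144, 42.0 and 42.9 normalized counts, so leaving out Control 1 removes the overlap between the groups. With any other library left out, no member was called. The sign was positive for all 10 members in each of these fits.

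With offsets for exonic length and GC content in each library, the median of the 10 log2 fold changes was 0.50 and each remained above 0, from 0.14 for Tap2 to 0.71 for H2-Q7. The values for H2-K1, H2-D1 and B2m were 0.48, 0.63 and 0.49 under these offsets. Members span exonic lengths from 860 bases (B2m) to 8493 bases (Nlrc5), and the part of gene length in their fold changes was not tested.

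**Figure D2:**
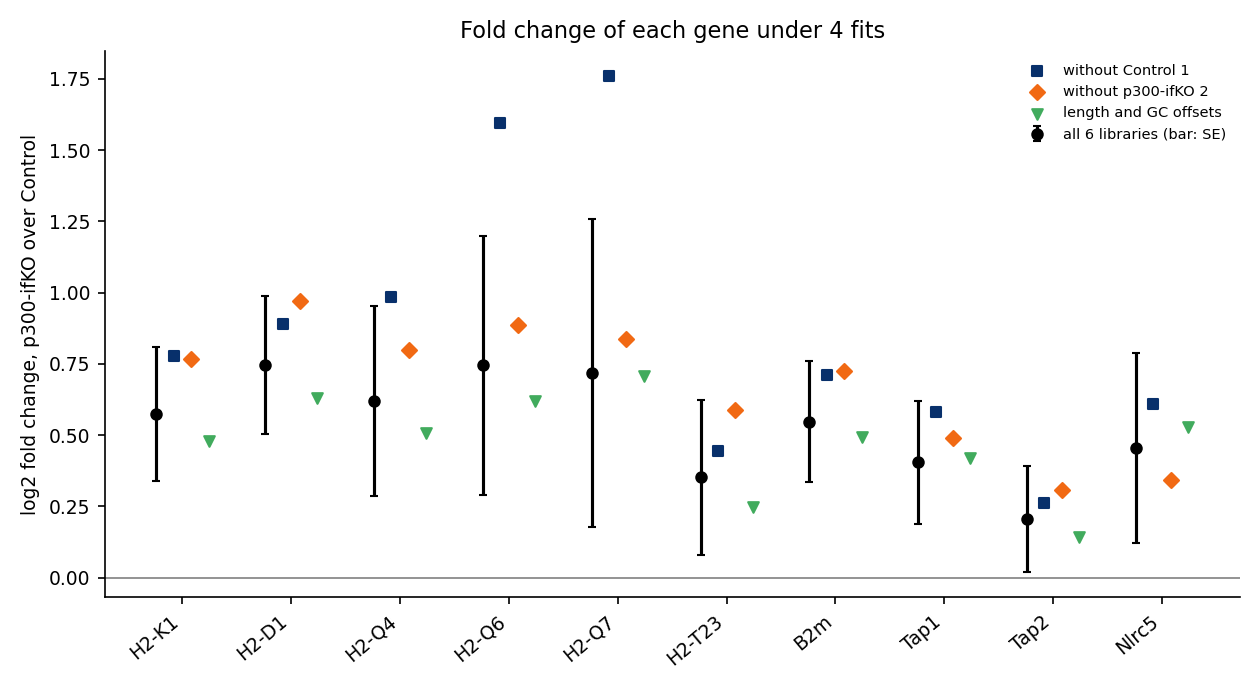
Log2 fold change, p300-ifKO over Control (y axis), of each gene with all 6 libraries (black, bar: standard error), without Control 1, without p300-ifKO 2, and with offsets for length and GC content. All values lie above 0, and leaving out Control 1 takes H2-Q6 from 0.74 to 1.59 and H2-Q7 from 0.72 to 1.76.

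Divided by exonic length, the levels spanned more than 2 orders of magnitude. In controls B2m stood at 390.0 ± 72.9 TPM (counts per exonic kilobase, scaled to the same total in every library; SD, n = 3), H2-D1 at 55.3 ± 9.76 and H2-K1 at 44.3 (37.3 to 55.9). These were followed by Tap2 at 9.28 ± 0.66, H2-T23 at 7.80 ± 0.97, H2-Q6 at 5.61 ± 4.32, H2-Q4 at 5.41 ± 2.16 and Tap1 at 4.24 ± 0.84 TPM. H2-Q7 (1.57 ± 1.40 TPM) and Nlrc5 (0.94 ± 0.29 TPM) were the lowest. The ranges over the 6 libraries of B2m and H2-D1, of H2-K1 and Tap2, and of Tap1 and H2-Q7 did not overlap. The other neighbours in this order overlapped, though H2-D1 exceeded H2-K1 in 6 of 6 libraries, and H2-Q6 exceeded H2-Q4 in only 3 of 6. In Control 1 H2-Q6 reached 10.6 TPM, above Tap2 in that mouse, while in Control 2 it was at 3.00 TPM, below Tap1.

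**Figure D3:**
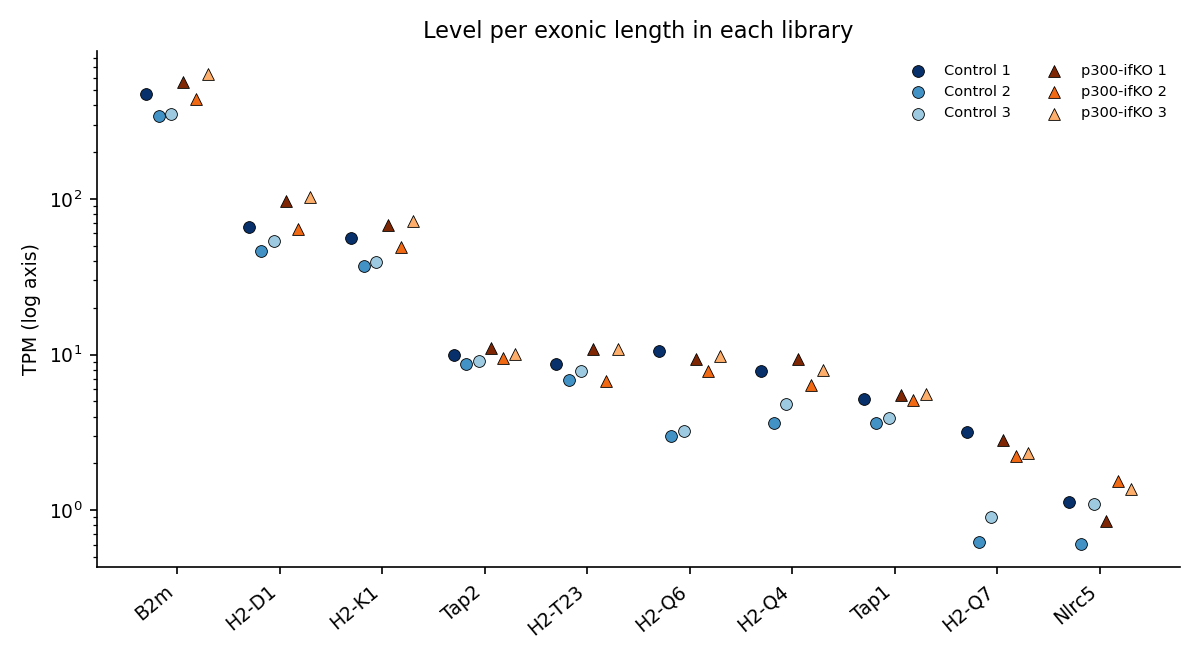
Level of each gene per exonic length, in TPM on a log axis, in the 6 libraries (circles: controls; triangles: p300-ifKO mice), ordered by the control mean. B2m lies between 343 and 633, H2-D1 and H2-K1 between 37.3 and 103, and Nlrc5 between 0.61 and 1.53.

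Class I heavy chains resemble each other, and reads of 50 bases can fit several genes. In the GENCODE M21 transcripts, 35.2% of the 50-base stretches of H2-Q4, 34.97% of those of H2-Q6 and 26.9% of those of H2-Q7 also occurred in another gene, against 14.6% for H2-T23, 12.5% for H2-D1, 11.9% for Tap2, 9.90% for H2-K1, 3.50% for Tap1, 0.349% for Nlrc5 and 0 for B2m. H2-Q6 had 13.9% of its stretches in common with H2-Q7 and 12.3% with H2-Q4. Coding sequences of H2-Q6 and H2-Q7 were identical at 95.4% of aligned bases, those of H2-K1 and H2-D1 at 91.4%, and H2-T23 was the most distant, at 81.2% to 83.5% to the other 5. Reads with a mapping quality of 10 or below were not counted, which leaves out reads that fit several places equally well. The stretches were sought on both strands, so they include overlaps with opposite-strand genes, whose reads fit 1 place and pass that filter. Such partners held 15.6% of the stretches of H2-Q4 (Gm11131), 9.46% and 2.44% of those of Tap2 (Gm15821, Gm20496) and 3.03% of those of Tap1 (Psmb9). Taking all shared positions out of the length raised the control level of H2-Q6 from 5.61 to 8.63 TPM and that of H2-Q4 from 5.41 to 8.36 TPM. The order of the 10 genes stayed as it was. For H2-Q4 and Tap2 this is not a correction for look-alike genes alone. On the opposite strand, Gm11131 covers 19.1% of the exonic bases of H2-Q4, Gm15821 and Gm20496 together cover 18.5% of Tap2, and Psmb9 covers 3.87% of Tap1. The strand setting of the counting is not given in the sources used here, so reads of these partners cannot be told apart. The levels of H2-Q4, Tap2 and Tap1 are uncertain to that extent. Exons of other genes do not cover H2-Q6 or H2-Q7, whose levels, like that of H2-Q4, are uncertain through the stretches shared with other genes.

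Ratios inside a library do not depend on its size. H2-Q6 made up 62.0%, 70.2% and 63.6% of the sum of H2-Q6 and H2-Q7 counts in controls and 61.9%, 63.0% and 67.3% in p300-ifKO mice, so that the share stayed within a narrow range while the sum varied. Relative to the sum of H2-K1 and H2-D1, H2-Q6 and H2-Q7 together amounted to 10.7%, 3.89% and 4.15% in controls and 7.01%, 8.31% and 6.40% in p300-ifKO mice, a 2.75-fold range. Control 1 was the highest and the other two controls the lowest of the 6. Against B2m, which shares no stretch with them, the range was 2.89-fold, from 3.02% in Control 2 to 8.75% in Control 1. H2-Q4 relative to H2-K1 and H2-D1 varied 1.48-fold (4.10% to 6.08%). For H2-T23 that ratio was 7.59% to 8.86% in controls and 6.28% to 6.97% in p300-ifKO mice, which did not overlap, a comparison picked after its values were seen. B2m amounted to 1.08 to 1.29 times the sum of H2-K1 and H2-D1 counts, and H2-D1 to 1.03 to 1.26 times H2-K1.

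**Figure D4:**
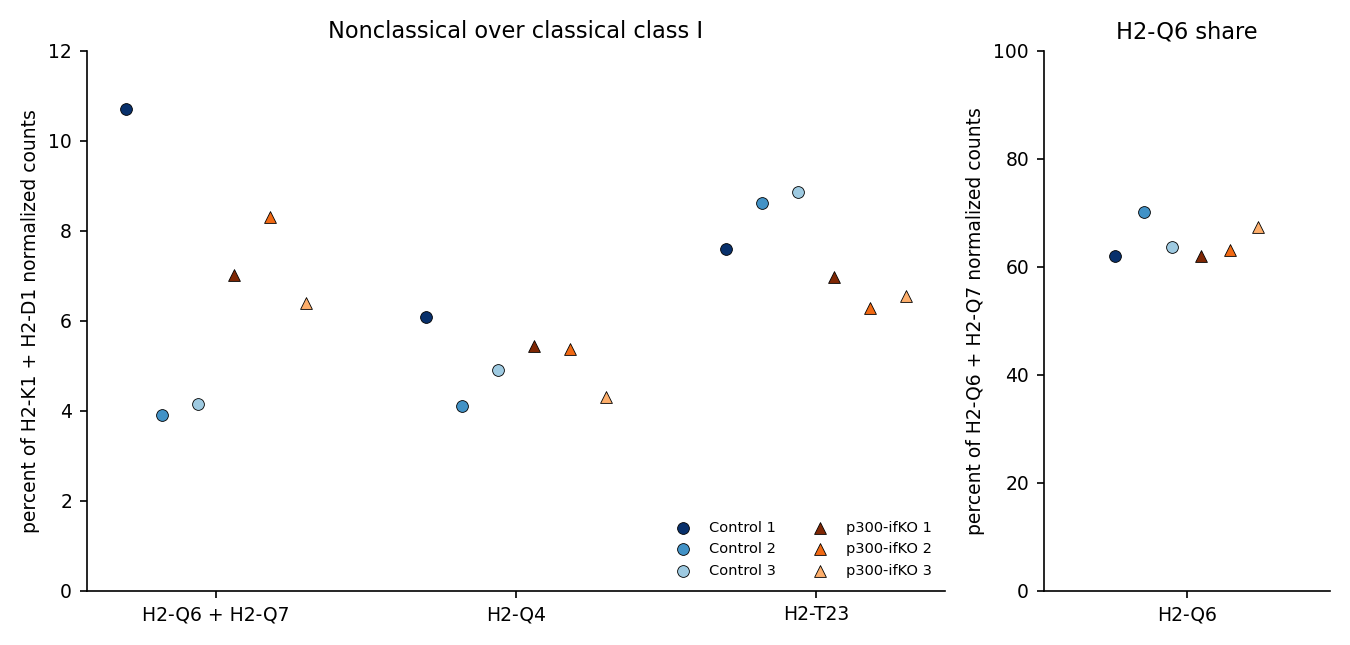
Left, normalized counts of H2-Q6 plus H2-Q7, of H2-Q4 and of H2-T23 as a percentage of H2-K1 plus H2-D1 in each library; right, H2-Q6 as a percentage of H2-Q6 plus H2-Q7 (circles: controls; triangles: p300-ifKO mice). H2-Q6 plus H2-Q7 run from 3.89% to 10.7%, while the H2-Q6 share stays between 61.9% and 70.2%.

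For each library, genes along the region of H2-Q6 and H2-Q7 were listed if more than 2-fold away from the median of the other 5 libraries. For a control, those 5 include all p300-ifKO mice, so the listing is not a comparison between controls. Between H2-K1 and H2-T23, 87 genes had a mean normalized count of at least 20. Control 2 differed in 6 of them (H2-Q4, H2-Q6, H2-Q7 and the class II genes H2-Aa, H2-Ab1 and H2-Eb1), Control 3 in 5 (H2-Q6, H2-Q7, H2-T24, H2-Aa and H2-Eb1) and Control 1 in 2 (H2-Aa and H2-Eb1). Over all 15451 genes at that level the shares were 0.414%, 1.55% and 0.259% in the same order. In p300-ifKO 1, 2 and 3 the listed genes of the region numbered 6, 3 and 2, against 5.46%, 0.608% and 0.576% of all genes, with none of the 10 members among them. H2-Aa and H2-Eb1 were listed in all 6 libraries. Because H2-Q6 picked the group to which H2-Q4 and H2-Q7 also belong, nothing is read from these counts beside the shares. Strain was labelled C57BL/6 for all 6 mice, and the counts carry no alleles, so the part of H2 haplotype in these values was not tested.

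The genes whose pattern over the 6 libraries was most like that of H2-Q6, among 13614 with a mean normalized count of at least 50, were Kcnk2 (r = 0.988), Plcd3 (0.987), H2-Q7 (0.983), Hkdc1 (0.977) and Tmem268 (0.977). All 5 had their lowest values in Control 2 and 3, but Kcnk2, for example, ran only from 911 to 1212. Among the members, H2-D1 was most like B2m (r = 0.983), H2-Q4 and Tap1 were most like each other (0.973), H2-T23 was most like H2-D1 (0.914) and Tap2 most like H2-T23 (0.904). Nlrc5 stood aside: its 9 correlations with the other members ran from 0.10 to 0.62 (H2-Q7), against 0.61 to 0.996 for the 36 pairs without it. These correlations share the same 6 libraries and their size factors and are given as a description.

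The other class I heavy chain genes did not share a direction. Of 17 listed, 5 had no count in any library, and of the 12 tested 6 had higher and 6 lower means in p300-ifKO mice. DESeq2 and edgeR called 0, and 1 had an unadjusted p under 0.05 in DESeq2, against 1.32% of all genes. Among the 7 with a mean normalized count of at least 10, 4 were higher and 3 lower (median 0.37). H2-T22, the highest of them, gave 229, 215 and 237 normalized counts in controls and 318, 267 and 298 in p300-ifKO mice, without overlap (log2 fold change 0.37 ± 0.16, SE). Over all genes with a mean of at least 10, 4.09% had every p300-ifKO library above every control. Mr1, which presents vitamin metabolites to MAIT cells, went the other way, with 163, 170.2 and 189.8 in controls and 148, 136 and 161 in p300-ifKO mice, also without overlap (-0.23 ± 0.19). The share of genes with every p300-ifKO library below every control is not given here, so nothing is read from this separation. The extremes were Cd1d1, which presents lipids, at 0.74 ± 0.51 and H2-T24 at -0.57 ± 0.51, the latter through a count of 135 in Control 3 against 34.7 to 52.1 elsewhere.

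Genes of peptide cutting had positive fold changes, and those of loading and trimming lay on both sides of 0. The 5 immunoproteasome and PA28 genes all had positive fold changes (median 0.44), from 0.38 ± 0.23 (SE) for Psme1, an activator subunit, to 0.56 ± 0.28 for Psmb8, with Psmb10, the other highly expressed member, also at 0.56. The 5 constitutive proteasome genes were likewise positive (median 0.33), from 0.22 ± 0.18 for Psmb7 to 0.51 ± 0.27 for Psmb5, with Psmb6 at 0.41 and Psma7 at 0.33. In both lists p300-ifKO 1 was the highest library for each gene, and the median of the 10 members in the same library was also the highest. That library also had the lowest rho between exonic length and deviation (-0.49). The part of gene length in these lists was not tested. Loading and trimming genes were close to 0 (median 0.09, 5 of 8 positive): Calr was at 0.11 ± 0.14, Canx at -0.08 ± 0.12, Tapbp, which bridges TAP and the heavy chain, at 0.19 ± 0.16, and Erap1, the trimming aminopeptidase, at -0.28 ± 0.25. DESeq2 and edgeR called 0 genes in these 3 lists. At an unadjusted p under 0.05 DESeq2 listed 2, both of the immunoproteasome list, against 1.32% of all genes.

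The interferon response list had a median near that of the members. Of its 20 genes 19 had a higher mean in p300-ifKO mice, against 49.3% of all genes with a mean of at least 10. The median log2 fold change was 0.51, against -0.01 over all genes at that level. DESeq2 and edgeR called 0 of 20. At an unadjusted p under 0.05 DESeq2 listed 9, all higher, against 1.32% of all genes in either direction. Mx1, an antiviral GTPase, gave 11.9, 4.2 and 3.06 normalized counts in controls and 31.1, 9.72 and 28.9 in p300-ifKO mice (1.85 ± 0.72, SE). Ifi27, the most abundant, gave 1316, 1226 and 1034 in controls and 2176, 1195 and 1817 in p300-ifKO mice (0.54 ± 0.23). For these 2 genes p300-ifKO 1 and 3 were high and p300-ifKO 2 lay within the controls, as for H2-K1 and H2-D1. Stat2 was at 0.10 ± 0.14 and Ifit2, the one lower gene, at -0.10 ± 0.19. By library, the median of the list relative to the control mean was 0.23, -0.14 and -0.09 in controls and 0.56, 0.17 and 0.73 in p300-ifKO mice, a sequence close to that of the 10 members. Groups did not overlap for Usp18, Rsad2, Gbp2 and Cxcl10, named because their ranges were apart, or 4 of 20 genes where 4.09% of genes had p300-ifKO libraries all higher.

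Upstream of the pathway fold changes lay on both sides of 0. Among 12 regulators of class I transcription the median was -0.08, with 5 higher and 7 lower: Irf1, an interferon regulatory factor, was at 0.28 ± 0.16 (SE), Rfx5, a subunit of the RFX complex that binds the X box, at -0.26 ± 0.27, Nfyb at -0.07 ± 0.12 and Creb1 at -0.18 ± 0.18. Of 7 interferon receptors and kinases 3 were higher and 4 lower (median -0.03), with Jak1 at -0.17 ± 0.14, Ifngr2 at 0.17 ± 0.15 and Ifnar2 at 0.22 ± 0.14. Class I receptors and partners were barely detected: only Pirb (6.75 to 26.9 normalized counts, 0.34 ± 0.63) reached a mean of 10, Lilrb4a lay between 1.07 and 9.18, and Klrc1, which encodes NKG2A, had no count in any library. DESeq2 and edgeR called 0 genes in these 3 lists, and 0 had an unadjusted p under 0.05 in DESeq2, against 1.32% of all genes.

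**Figure D5:**
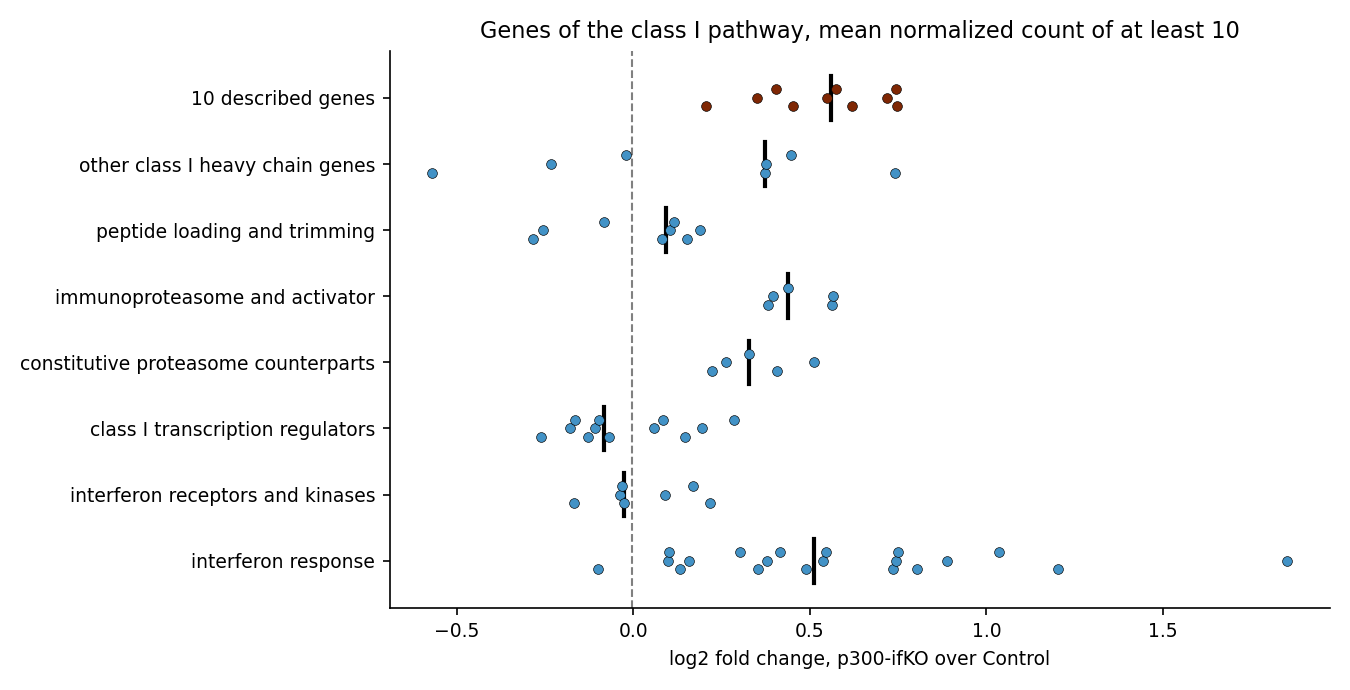
Log2 fold change, p300-ifKO over Control, of each gene with a mean normalized count of at least 10 in the 10 described genes and 7 lists of pathway genes (x axis); black bars are list medians and the dashed line is the median over all such genes, -0.01. The described genes (median 0.56), the interferon response list (0.51), the immunoproteasome list (0.44), the other class I heavy chain genes (0.37, 4 of 7 positive) and the constitutive proteasome list (0.33) have medians to the right of the line, the loading and trimming list is at 0.09, and the regulators (-0.08) and interferon receptors and kinases (-0.03) lie around the line.

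Markers of cells that express class I genes were read in the same libraries. Of 10 microglia markers 8 had a higher mean in p300-ifKO mice, and their summed normalized counts were 10383 to 11396 in controls and 11349.9 to 14590.5 in p300-ifKO mice; Cx3cr1 and P2ry12, which define resting microglia, had fold changes of -0.09 and -0.02, while C1qa was at 0.50 and Aif1 at 0.56. Border macrophage markers summed to 110.3 to 235 in controls and 114 to 163 in p300-ifKO mice (2 of 6 higher). Endothelial markers summed to 5463 to 5855 in controls and 5214 to 5751 in p300-ifKO mice (2 of 8 higher). T and NK cell markers summed to 71.4 to 113 in controls and 75.1 to 125 in p300-ifKO mice (4 of 8 higher), of which 5 had no count in at least 1 library and only Trac and Lck reached a mean of 10. B and plasma cell markers summed to 436 to 516 in controls and 348 to 883 in p300-ifKO mice (6 of 7 higher), with Igkc at 2.98, 2.10 and 10.2 in controls and 27.9, 10.6 and 126 in p300-ifKO mice. Their part in the class I values was not tested. Hippocampal excitatory neuron markers, read as a check of the tissue, summed to 139730.4 to 160519 in controls and 136299 to 164772 in p300-ifKO mice (1 of 6 higher). Choroid plexus markers were higher in 5 of 6 genes, oligodendrocyte markers in 5 of 6, astrocyte markers in 2 of 6 and blood markers in 0 of 5, and their ranges overlapped between the groups, except for those of astrocytes (106191 to 109752 in controls, 93275 to 105015 in p300-ifKO mice).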

How the data were processed

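The authors deposited 1 table of raw counts of reads per gene, with each gene's exonic length. Per the study's methods and the submitters' processing notes, single-end 50-base reads were checked with FastQC 0.11.8, trimmed with Trim Galore 0.6.4, aligned to GRCm38 with STAR 2.6.1, filtered on mapping quality above 10 and counted over exons. Gene symbols came from GENCODE M21 (55230 of 55471 identifiers, 99.6%), as did positions and shared 50-base stretches. DESeq2 1.42.0 (R 4.3.3) was fitted to the deposited counts of all genes and 6 libraries (Wald test, Benjamini-Hochberg), and the code was tested on simulated counts. Alternatives used edgeR 4.0.16, limma 3.58.1, mgcv 1.9.3 offsets for length and GC content, other filters, a replicate block and each library left out. Named genes were all members, the genes like H2-Q6, label checks, and in each list the called genes, the 2 most abundant and those with the highest and the lowest fold change (mean of at least 10), other names being given as exceptions. The members and lists were chosen with earlier results of these data known. 1 gene of the regulator list is not reported here. Each library is 1 mouse.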

Additional observations from a re-analysis of the deposited data

How the results depend on the processing

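The median log2 fold change of the 10 members was 0.56 with all libraries, between 0.50 and 0.57 under the other tools, filters and offsets, and between 0.38 and 0.75 with 1 library left out. The median of the interferon response list was 0.51, and between 0.39 and 0.65 with 1 library left out (an alternative chosen after seeing the data, as were the calls in the pathway lists and the ratio to B2m). None of the 150 recomputed fold changes of single members changed sign, and 2 moved by more than the spread between mice, those of H2-Q6 and H2-Q7 without Control 1 (1.59 and 1.76). DESeq2 called 2 genes in all, and 2 to 951 with 1 library left out (951 without p300-ifKO 2). In the pathway lists it called 0 genes, and 0 to 8 with 1 library left out. The 8, out of 82 listed genes, were called without p300-ifKO 2, where 8.72% of the 10912 genes with an adjusted p were called. They included Ifi27, Ifit3 and Oasl2, and nothing is read from their number beside that share. Mice with the same replicate number did not deviate together (correlations of 0.27, -0.28 and 0.13 over 17054 genes), so the numbers were not taken as pairs; with a replicate block 4 genes were called, none of them a member, and H2-Q6 and H2-Q7 were at 0.97 and 1.03. The counts of H2-Q6 (40 to 145 reads) and H2-Q7 (17 to 89) limit their precision, and 3 mice a group cannot reach an exact permutation p under 0.10. Lengths without shared positions moved H2-Q4, H2-T23 and Tap2 to 8.36, 9.14 and 10.5 TPM. For H2-Q4 and Tap2 the positions taken out include overlaps with genes on the opposite strand.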
